A study of Mus musculus with 15 samples.

Results

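Matrix metalloproteinases (Mmp), secreted Adamts proteases and their tissue inhibitors (Timp) were followed in RNA from injured mouse cortex, 1 day after controlled cortical impact, a mechanical blow that models traumatic brain injury. The genes are the protein-coding genes of the mouse GRCm38 annotation (GENCODE M21) whose symbol is Mmp, Adamts or Timp with a number. The annotation holds 45 of them. Of the 33223 genes counted, 43 belong here, namely 20 Mmp, 19 Adamts and 4 Timp genes. Mmp7 and Mmp20 were not analysed here, and Mmp1a, annotated as a polymorphic pseudogene, is no member.

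Every animal received the same injury to the right parietal cortex, and dissociated cells of that side were sorted with magnetic beads against CD45 and CD31. The groups are CD45-selected cells of endothelial EphA4 knockout (KO) mice (4 libraries), CD45-selected cells of WT mice (3), flow-through of KO mice (3) and flow-through of WT mice (4). The KO mice carry floxed EphA4 and VeCadCreERT2, a Cre recombinase whose VE-cadherin promoter is active in endothelial cells and whose fusion to a receptor domain makes it inducible, and the WT mice are EphA4f/f. No uninjured group was analysed here, so no level can be read as a response to injury, and the CD31-selected cells, in which the deletion acts, were not analysed here. Replicate numbers are only names, given in accession order. A 5th library labelled flow-through WT stands in the CD45 count table, and it was left out of the fits by the rule that defines these genes. The series title names the question as how endothelial EphA4 acts on blood-brain barrier integrity.

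Metalloproteinases are zinc-dependent enzymes made as inactive precursors, and they cut collagens, laminins and other proteins of the extracellular matrix, including the basement membrane of brain vessels. Adamts enzymes carry thrombospondin repeats, and several of them cut the hyaluronan-binding proteoglycans that fill the space around neurons. Timps bind the active site of these enzymes and block it. In the injured brain, Mmp9 is best known as an enzyme that leukocytes and vascular cells release and that loosens the barrier.

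The fractions were checked by their markers. Levels are given as CPM, read counts scaled to a common library total and corrected by TMM, a factor per library that sets the bulk of genes equal over all 14 libraries. The total counts were 11574414 to 31337948 per library. Ptprc, which encodes CD45, lay at 966 to 1273 CPM in CD45 libraries, against 0.559 to 0.994 CPM in flow-through libraries. Summed neutrophil markers (11 genes) lay at 6618 to 12100 CPM in the CD45 libraries, against 6.67 to 12.2 CPM in the flow-through, and Ly6g was at 0 in all flow-through libraries. Pecam1, which encodes CD31, lay at 159 to 206 CPM in the CD45 libraries, against 1.54 to 5.24 CPM in the flow-through, and all 11 endothelial markers were higher in CD45 libraries. Summed astrocyte markers (8 genes) lay at 183 to 259 CPM in the CD45 libraries, against 5906 to 7488 CPM in the flow-through. Epha4 itself lay at 1.99 to 4.11 CPM in CD45 KO, 3.29 to 3.61 CPM in CD45 WT, 30.3 to 35.8 CPM in flow-through KO and 31.1 to 35.3 CPM in flow-through WT libraries. Most of this RNA can come from other cells, so it does not check the endothelial deletion. In such bulk RNA, fewer cells of a type and less RNA per cell cannot be told apart.

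The largest differences among these genes lay between the fractions, and promoters of genes toward either end of the fold changes are shown. They belong to the 3 genes at each end of the fold changes, among those that passed the test, averaged at least 10 CPM in 1 fraction and have a RefSeq promoter entry (GRCm38.p6), which 29 of the 43 genes do. Mmp9 (log2 fold change 9.65), Mmp19 (6.57) and Mmp16 (-5.16) have no such entry and are not shown. Mmp9 and Mmp19 differed more between fractions than Mmp12, and Mmp16 more than Mmp15 and Adamts20. Each promoter runs 5′ to 3′ from 250 bases before to 50 after an annotated start. The start of Adamts20 lies inside the gene's GENCODE span. Capitals mark matches, on either strand, to AP-1 (TGANTCA), the core bound by PU.1 and other ETS factors (GAGGAA), the GC box (GGGCGG) and the TATA box (TATAAA). No 2 marked matches overlapped in these sequences. The first 4 sequences belong to genes higher in CD45 libraries.
Mmp8, chr9:7558179-7558478, plus strand: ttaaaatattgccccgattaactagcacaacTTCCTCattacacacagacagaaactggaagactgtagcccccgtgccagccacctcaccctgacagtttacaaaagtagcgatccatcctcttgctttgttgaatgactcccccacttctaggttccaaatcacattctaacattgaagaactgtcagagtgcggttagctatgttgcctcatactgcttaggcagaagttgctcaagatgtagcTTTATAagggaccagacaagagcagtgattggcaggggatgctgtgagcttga
Mmp25, chr17:23645220-23645519, minus strand: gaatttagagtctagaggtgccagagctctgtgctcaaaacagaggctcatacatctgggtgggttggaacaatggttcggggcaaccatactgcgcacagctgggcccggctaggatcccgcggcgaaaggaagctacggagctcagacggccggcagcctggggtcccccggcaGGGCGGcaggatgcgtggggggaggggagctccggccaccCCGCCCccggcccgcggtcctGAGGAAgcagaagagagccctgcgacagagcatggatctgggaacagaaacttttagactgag
Mmp12, first start, chr9:7344147-7344446, plus strand: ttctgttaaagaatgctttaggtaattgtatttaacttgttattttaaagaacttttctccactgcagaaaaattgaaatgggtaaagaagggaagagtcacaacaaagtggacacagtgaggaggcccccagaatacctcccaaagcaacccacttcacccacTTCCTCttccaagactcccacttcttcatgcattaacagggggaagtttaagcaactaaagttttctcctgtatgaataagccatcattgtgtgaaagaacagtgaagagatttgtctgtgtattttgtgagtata
Mmp12, second start, chr9:7347124-7347423, plus strand: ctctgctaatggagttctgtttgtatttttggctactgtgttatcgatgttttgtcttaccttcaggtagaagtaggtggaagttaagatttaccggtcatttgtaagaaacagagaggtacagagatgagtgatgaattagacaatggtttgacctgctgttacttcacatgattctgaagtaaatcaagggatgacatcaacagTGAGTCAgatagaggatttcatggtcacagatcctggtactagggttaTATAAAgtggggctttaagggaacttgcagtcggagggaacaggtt
The next 3 belong to genes lower in CD45 libraries.
Timp4, chr6:115252156-115252455, minus strand: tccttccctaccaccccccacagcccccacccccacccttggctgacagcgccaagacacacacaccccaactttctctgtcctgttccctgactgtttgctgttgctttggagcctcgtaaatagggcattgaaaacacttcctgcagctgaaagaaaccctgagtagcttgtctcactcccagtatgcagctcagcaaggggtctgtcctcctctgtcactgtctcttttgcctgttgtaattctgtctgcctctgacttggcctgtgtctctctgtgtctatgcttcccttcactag
Mmp15, chr8:95352046-95352345, plus strand: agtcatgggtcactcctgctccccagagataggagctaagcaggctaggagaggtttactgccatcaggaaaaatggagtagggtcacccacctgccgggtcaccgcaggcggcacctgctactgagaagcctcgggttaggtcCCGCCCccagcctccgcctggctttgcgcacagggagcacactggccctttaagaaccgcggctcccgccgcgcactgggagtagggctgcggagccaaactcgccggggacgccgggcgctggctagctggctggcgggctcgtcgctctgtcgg
Adamts20, chr15:94404301-94404600, minus strand: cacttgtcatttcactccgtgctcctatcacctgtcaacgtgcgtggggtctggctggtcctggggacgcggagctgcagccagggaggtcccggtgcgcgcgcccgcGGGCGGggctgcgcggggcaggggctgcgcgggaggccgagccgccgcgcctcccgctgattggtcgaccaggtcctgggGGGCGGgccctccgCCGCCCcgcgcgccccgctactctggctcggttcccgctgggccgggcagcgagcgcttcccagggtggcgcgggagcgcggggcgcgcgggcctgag
The ETS core stood in the promoters of Mmp8, Mmp25 and Mmp12 (first start) and in none of the 3 others. Over the first listed promoter of each gene, it stood in 3 of 8 genes higher in CD45 libraries and in 0 of 14 genes lower there, against 28.3% of all 32851 promoters. The GC box stood in 4 of those 8 and 10 of those 14 genes, against 35.7% of all promoters. The AP-1 letters stood in 1 of the 8 and 1 of the 14 (7.81% of all promoters), and the TATA box in 3 of the 8 and 1 of the 14 (13.6% of all promoters). These counts describe letters in a window and test no factor.

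**Figure D1:**
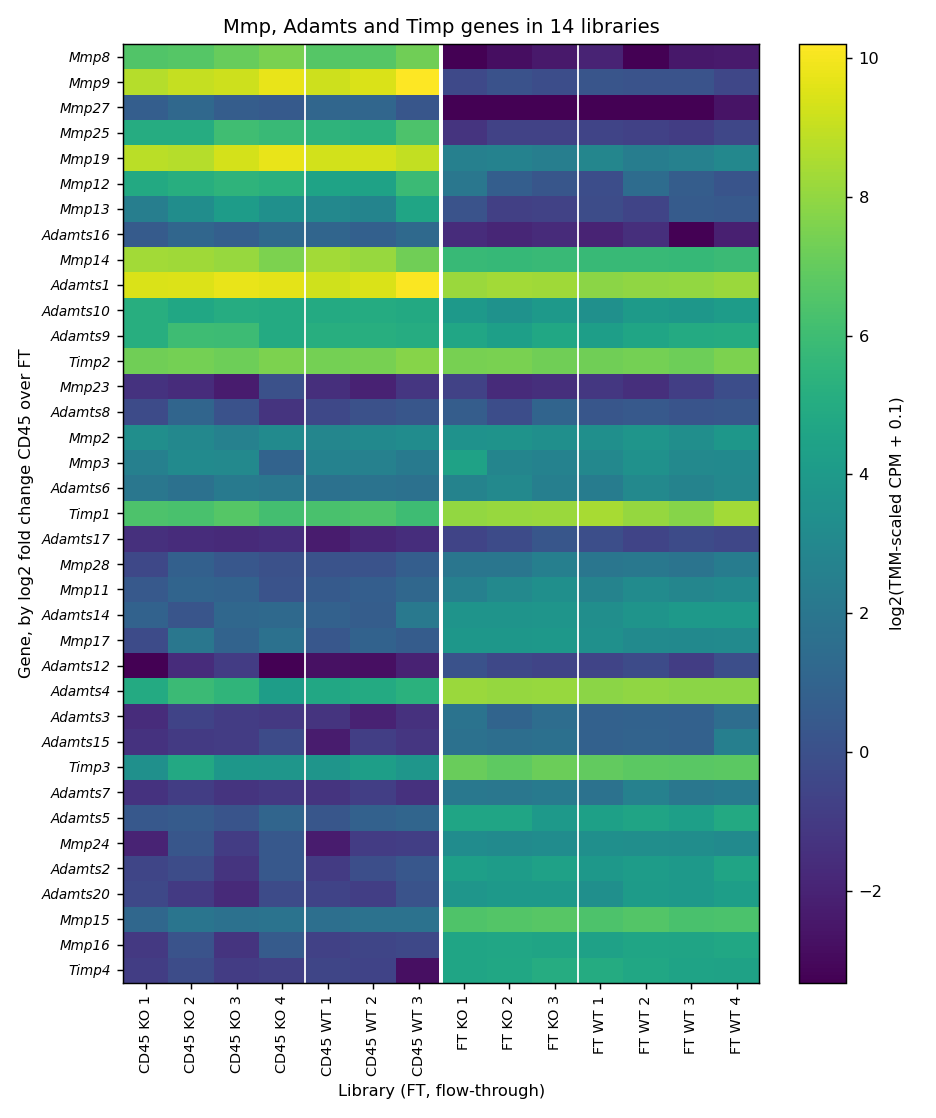
Levels of the 37 genes tested between fractions, as log2(TMM-scaled CPM + 0.1), in 14 libraries (columns: CD45 KO, CD45 WT, flow-through KO, flow-through WT), ordered by log2 fold change. Mmp8 and Mmp9 at the top are bright in the 7 CD45 libraries, and Timp4 and Mmp16 at the bottom in the 7 flow-through libraries.

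The comparison of CD45 with flow-through libraries asks which cells hold the RNA of each protease and inhibitor. Of the 43 genes, 37 passed the filter on low counts, 12 were higher in CD45 libraries, 22 lower and 3 did not pass (edgeR's quasi-likelihood test, adjusted p under 0.05). This is 91.9% called, beside 86.1% of all 18098 genes tested, so the share of calls is near the background. By direction, 41.4% of all genes were higher and 44.7% lower. The fractions did not overlap for 31 of the 37, beside 69.5% of all genes. The median log2 fold change was -1.81 for the 37 genes and -0.05 for all genes. Of the 37, 27 passed the filter within each fraction alone, and of these 9 were higher, 16 lower and 2 not called. The other 10 passed through 1 fraction, which favours a difference. Of them 3, Mmp8, Mmp27 and Adamts16, passed through the CD45 fraction. The remaining 7, Mmp23, Mmp24, Adamts3, Adamts7, Adamts12, Adamts15 and Adamts17, passed through the flow-through. By family, 8 Mmp genes were higher and 8 lower of 17 tested, 4 Adamts genes higher and 11 lower of 16, and 0 Timp genes higher and 3 lower of 4.

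**Figure D2:**
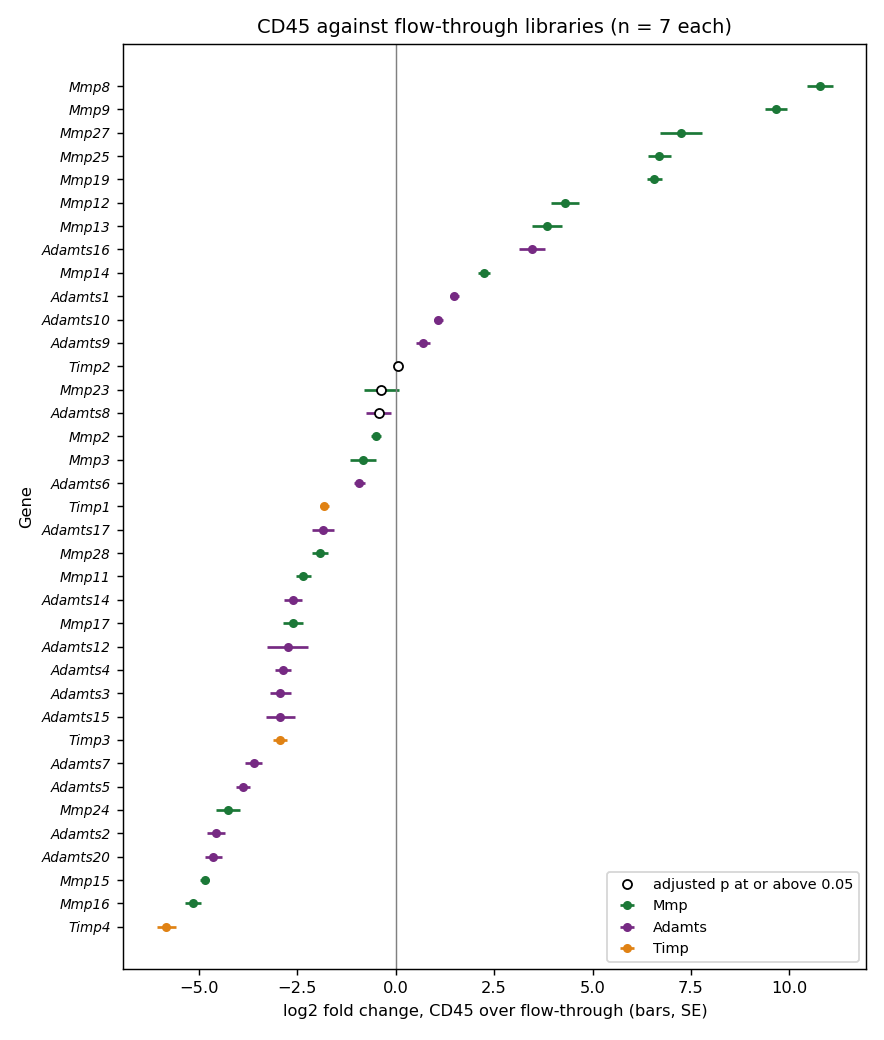
The log2 fold change of each gene tested, CD45 over flow-through, with its standard error (7 libraries per fraction) and coloured by family. Mmp8 reached 10.77 and Timp4 -5.82, and the open circles (Timp2, Mmp23 and Adamts8) did not pass.

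The gelatinase Mmp9, the collagenase Mmp8 and the membrane-type Mmp25 had 3 of the 4 highest log2 fold changes, with Mmp27. Mmp9 (GRCm38 chr2:164940780-164955850, plus strand), the gelatinase stored in neutrophil granules, lay at 419, 583 and 1176 CPM (lowest, median, highest) in CD45 libraries, against 0.624, 0.964 and 1.085 CPM in the flow-through. All 7 CD45 libraries were above all 7 flow-through libraries, and the log2 fold change was 9.65 (SE 0.28, edgeR adjusted p = 5.21e-14). Mmp8, the collagenase of neutrophils, lay at 91.2, 100.3 and 179 CPM in CD45 libraries, against 0, 0.0799 and 0.155 CPM in the flow-through (log2 fold change 10.77, SE 0.33, edgeR adjusted p = 1.39e-13). Mmp25, a membrane-anchored metalloproteinase of leukocytes, lay at 32.6, 44.2 and 87.1 CPM in CD45 libraries, against 0.308, 0.526 and 0.624 CPM in the flow-through (6.70, SE 0.28, edgeR adjusted p = 5.64e-12). The fractions did not overlap for any of these 3 genes. Mmp8 passed the filter on low counts only through the CD45 fraction, which favours a difference. The neutrophil marker sums given above moved the same way, as did those of monocytes or macrophages, microglia, lymphocytes, platelets and endothelial cells. The part of these markers was not tested. The ETS core stands in the promoters of Mmp8 and Mmp25 printed above and in 28.3% of all promoters, and no factor was tested.

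Further secreted and membrane-type enzymes were higher in CD45 libraries. Mmp19 (chr10:128790910-128800824, plus strand), a secreted metalloproteinase that cuts basement membrane proteins, lay at 408, 614 and 849 CPM (lowest, median, highest) in CD45 libraries, against 5.27, 5.96 and 7.72 CPM in the flow-through (6.57, SE 0.19, edgeR adjusted p = 5.05e-14). Of its exon sequence, 28.3% overlaps genes on the opposite strand, so its value is uncertain. Mmp12, the macrophage elastase, lay at 21.9, 36.1 and 59.5 CPM in CD45 libraries, against 0.814, 1.48 and 4.045 CPM in the flow-through (4.29, SE 0.35). Mmp13, a collagenase, lay at 5.47, 9.85 and 24.9 CPM in CD45 libraries, against 0.482, 0.775 and 1.40 CPM in the flow-through (3.84, SE 0.39). Mmp14, the membrane-type enzyme that activates the Mmp2 precursor at the cell surface, differed less. It lay at 152.5, 274 and 322 CPM in CD45 libraries, against 52.9, 54.6 and 58.7 CPM in the flow-through (2.23, SE 0.15, edgeR adjusted p = 1.83e-09). Mmp27 had 1.145 to 2.31 CPM in CD45 libraries but stood at 0 in 6 of the 7 flow-through libraries. With 227 counts against 2, its ratio of CD45 to flow-through was 163 (95% exact counting interval 44.6 to 1350). That interval pools the reads of the 7 libraries of each fraction and leaves out the spread between libraries. Mmp27 passed the filter on low counts only through the CD45 fraction, which favours a difference.

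Several of these genes share a place in the genome. A cluster on chromosome 9 (GRCm38, 7272514 to 7699585) holds 9 annotated Mmp genes, of which 7 are in the tables and 5 were tested. Mmp13, Mmp12, Mmp8 and Mmp27 were higher in CD45 libraries, and Mmp3, which lies between Mmp12 and Mmp8, was lower. Beside these counts, 41.4% of all genes tested were higher and 44.7% lower. Mmp8 and Mmp27 passed the filter on low counts only through the CD45 fraction, which favours a difference. Mmp3, a stromelysin that activates other metalloproteinase precursors, lay at 1.85, 5.97 and 8.78 CPM in CD45 libraries, against 6.33, 8.15 and 22.4 CPM in the flow-through (-0.83, SE 0.33, edgeR adjusted p = 0.0302). Its fractions overlapped, and without flow-through KO replicate 1 the log2 fold change was -0.41 (edgeR adjusted p = 0.162). It also missed the threshold without flow-through WT replicate 2 (0.0543), CD45 KO replicate 1 (0.0503) or CD45 WT replicate 3 (0.0713), with no filter on low counts (0.0757) and with the mismatched library entered as labelled (0.0566), all edgeR adjusted p. Mmp10 and Mmp1b, the remaining 2 in the tables, had at most 11 counts and 1 count in a library. Mmp12 and Mmp1b overlap tail to tail on opposite strands, over 2.17% of the exon sequence of Mmp12.

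Of the Adamts genes, 4 were higher in CD45 libraries. Adamts1 (chr16:85793827-85803113, minus strand), a secreted enzyme that cuts versican and restrains vessel growth, lay at 606, 726 and 1099 CPM in CD45 libraries, against 229, 288 and 316 CPM in the flow-through (1.49, SE 0.12, edgeR adjusted p = 3.21e-09). Per kilobase of exon it was among the highest members in both fractions, with 147 CPM ± 30.3 in CD45 libraries and 52.0 CPM ± 6.15 in the flow-through (SD, n = 7 each). Adamts10, a microfibril-associated enzyme, lay at 26.1 to 35.3 CPM in CD45 libraries, against 10.9 to 17.7 CPM in the flow-through (1.09, SE 0.11). Adamts9, a versican-cutting enzyme, lay at 30.6 to 65.0 CPM in CD45 libraries, against 19.0 to 31.4 CPM in the flow-through (0.69, SE 0.17), and the fractions overlapped. Under scaling by library totals alone it was at 0.17 (edgeR adjusted p = 0.374). Adamts16 stayed at 1.35 to 2.39 CPM in CD45 libraries, against 0 to 0.258 CPM in the flow-through (3.47, SE 0.33). Summed endothelial markers (11 genes), 388 to 657 CPM in the CD45 libraries, against 47.96 to 70.55 CPM in the flow-through, moved in the same direction as these 4 genes. So did the sums of neutrophil, monocyte or macrophage, microglia, lymphocyte and platelet markers. Their median log2 fold changes were larger, at 6.05 to 11.49, against 3.34 for the endothelial markers. The part of these markers in the result was not tested.

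**Figure D3:**
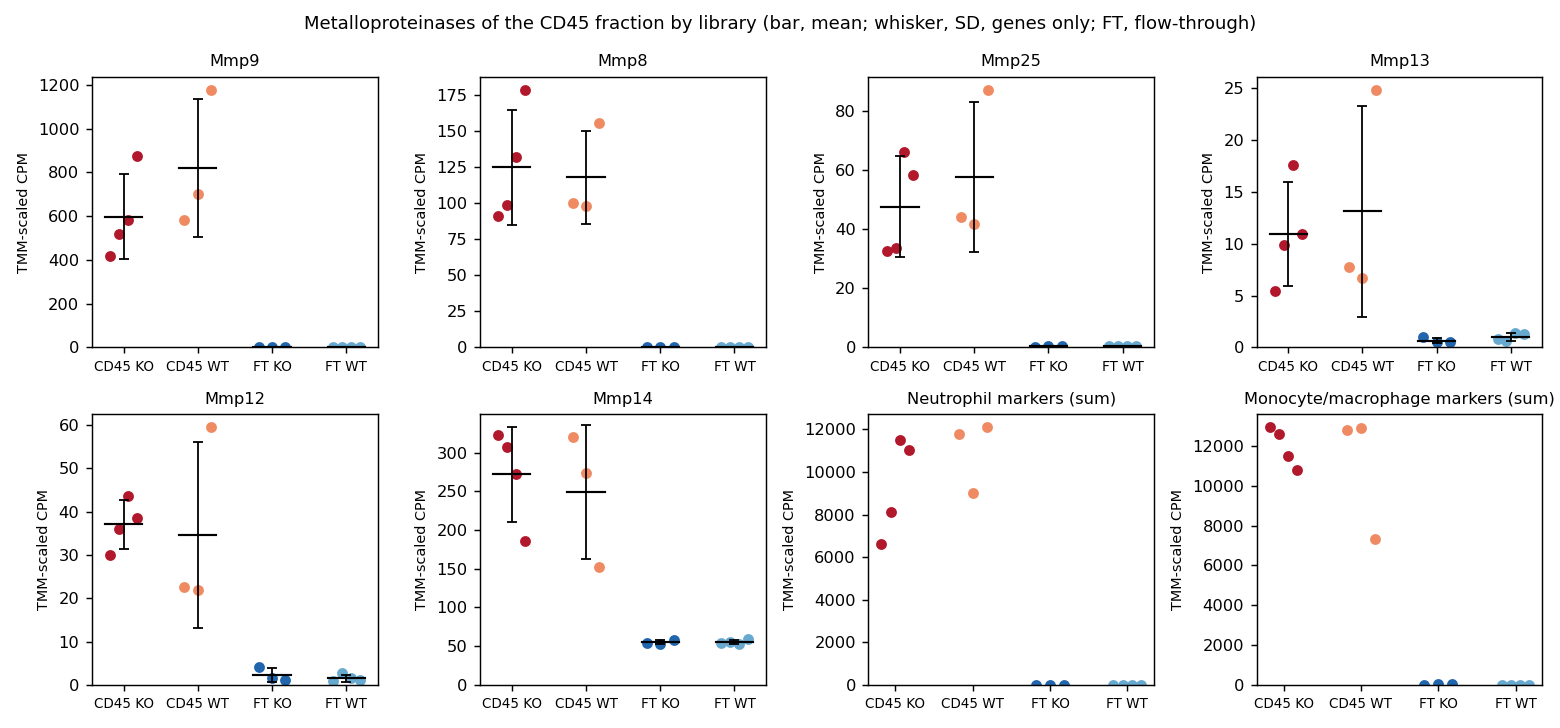
TMM-scaled CPM of 6 metalloproteinases and of summed neutrophil and monocyte or macrophage markers in each library, by group (points, libraries; bars and whiskers, mean and SD of genes). Among the 7 CD45 libraries, WT replicate 3 holds the highest Mmp9, Mmp25, Mmp13 and Mmp12 and the lowest Mmp14 and monocyte or macrophage markers.

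Levels also differed among the CD45 libraries. Mmp9 was at 419, 517, 583 and 873 CPM in CD45 KO replicates 1 to 4, against 583, 699 and 1176 CPM in CD45 WT replicates 1 to 3. Mmp14 was at 322, 308, 272 and 186 CPM in the same KO libraries, against 319.7, 274 and 152.5 CPM in the WT libraries. The 2 libraries highest in Mmp9, KO replicate 4 and WT replicate 3, were the 2 lowest in Mmp14. These 2 also had the lowest summed monocyte and macrophage markers (10 genes), 10780 and 7330 CPM, against 11510 to 12940 CPM in the 5 others. In KO replicate 4 these markers did not move together. Lyz2 was low there, at 3569 CPM, against 5076 to 6503 CPM in those 5, and so was Ccr2. Arg1, at 4143 CPM, was the highest of the CD45 libraries, and F13a1, at 919 CPM, the next to highest. Summed neutrophil markers were at 6618, 8130, 11490 and 11030 CPM in the KO libraries, against 11800, 9026 and 12100 CPM in the WT libraries. Adamts9, with Adamts4 and Timp3, was highest in KO replicate 2, which also had the highest sum of endothelial markers, 657 CPM, against 388 to 480 CPM in the 6 others. That library was also highest in summed neuron markers (10 genes), 212.8 CPM, against 38.2 to 96.6 CPM in the 6 others, in astrocyte markers (259 CPM) and in mural markers (10 genes, 125 CPM). The part of these markers in the levels was not tested.

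Genes of the flow-through formed the larger set. It held 4 of the 6 membrane-type enzymes. Mmp15 (chr8:95352268-95375080, plus strand) lay at 2.17, 3.29 and 3.77 CPM (lowest, median, highest) in CD45 libraries, against 78.8, 88.0 and 104.6 CPM in the flow-through (log2 fold change -4.85, SE 0.11, edgeR adjusted p = 5.12e-16). Mmp16 lay at 0.316 to 1.36 CPM in CD45 libraries, against 21.2 to 26.98 CPM in the flow-through (-5.16, SE 0.20). Mmp24, a membrane-type enzyme of neurons, lay at 0.102 to 1.24 CPM in CD45 libraries, against 8.67 to 10.7 CPM in the flow-through (-4.26, SE 0.32). Mmp17, anchored to the membrane by a lipid, lay at 0.750 to 3.94 CPM in CD45 libraries, against 8.39 to 14.5 CPM in the flow-through (-2.61, SE 0.25). So 4 of the 6 membrane-type genes were lower and 2, Mmp14 and Mmp25, higher in CD45 libraries. Of all genes tested, 44.7% were lower and 41.4% higher. Mmp24 passed the filter on low counts only through the flow-through, which favours a difference. Exons of Mmp24, Mmp28, Adamts9 and Adamts8 overlap genes of the opposite strand over 10.6 to 13.6% of their length, and those of Mmp11, Adamts4, Adamts7 and Timp4 over 1.53 to 5.58%, so these values are uncertain too.

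The other Mmp genes of this side were closer between fractions. The gelatinase Mmp2 lay at 6.01 to 10.3 CPM in CD45 libraries, against 9.99 to 14.1 CPM in the flow-through (-0.49, SE 0.13, edgeR adjusted p = 0.00197), so that the 2 gelatinases Mmp2 and Mmp9 differed in opposite directions. Mmp11, a stromelysin, lay at 0.988 to 2.19 CPM in CD45 libraries, against 5.86 to 10.5 CPM in the flow-through (-2.34, SE 0.19). Mmp28, or epilysin, lay at 0.675 to 1.69 CPM in CD45 libraries, against 3.64 to 5.55 CPM in the flow-through (-1.91, SE 0.21). Mmp23 lay between 0.105 and 0.927 CPM in all 14 libraries and did not pass (-0.36, SE 0.44, edgeR adjusted p = 0.45).

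Adamts enzymes that cut proteoglycans were mostly on the flow-through side. Adamts4 (chr1:171250421-171260637, plus strand), the aggrecanase that cuts brevican and aggrecan, lay at 18.7, 30.7 and 58.6 CPM (lowest, median, highest) in CD45 libraries, against 232, 252 and 282.5 CPM in the flow-through (-2.87, SE 0.20, edgeR adjusted p = 3.38e-09). Per kilobase of exon, it stood at 52.9 CPM ± 4.68 in the flow-through (SD, n = 7), within the spread of Adamts1 there. Adamts5, another aggrecanase and the neighbour of Adamts1 (chr16:85856173-85901828, minus strand), lay at 1.05 to 2.05 CPM in CD45 libraries, against 15.3 to 29.4 CPM in the flow-through (-3.87, SE 0.18), so these neighbours differed in opposite directions. Adamts20, a versican-cutting enzyme, lay at 0.211 to 1.00 CPM in CD45 libraries, against 10.6 to 18.8 CPM in the flow-through (-4.63, SE 0.21). Adamts15 lay at 0.102 to 0.741 CPM in CD45 libraries, against 1.71 to 5.52 CPM in the flow-through (-2.93, SE 0.37). Adamts8 lay at 0.309 to 2.02 CPM in CD45 libraries, against 0.832 to 1.99 CPM in the flow-through, and the difference did not pass (-0.43, SE 0.32, edgeR adjusted p = 0.219). It passed without CD45 KO replicate 2 (-0.74, edgeR adjusted p = 0.021) and with library totals (-0.95, edgeR adjusted p = 0.0115). Of the 7 proteoglycan-cutting Adamts genes, 2 (Adamts1 and Adamts9) were higher in CD45 libraries, 4 lower and 1 not called. Of all genes tested, 41.4% were higher and 44.7% lower. Adamts15 passed the filter on low counts only through the flow-through, which favours a difference.

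All 3 enzymes that trim procollagens were lower in CD45 libraries, as were 44.7% of all genes tested. Adamts2 lay at 0.316 to 1.23 CPM in CD45 libraries, against 14.8 to 23.6 CPM in the flow-through (-4.56, SE 0.22). Adamts14 reached at most 4.34 CPM in CD45 libraries and at least 10 CPM in each flow-through library (-2.60, SE 0.22). Adamts3, which also cuts reelin, lay at 0.141 to 0.563 CPM in CD45 libraries, against 1.72 to 3.43 CPM in the flow-through (-2.93, SE 0.27). Summed fibroblast markers (8 genes) lay at 33.3 to 69.5 CPM in CD45 libraries, against 183 to 438 CPM in the flow-through. Of the 7 tested, 6 were lower in CD45 libraries and 1, Slc6a13, was higher (2.48, SE 0.31). All tested astrocyte, oligodendrocyte, oligodendrocyte precursor, neuron, ependymal and choroid plexus markers were lower there too. The part of these markers was not tested. Adamts6 (-0.92, SE 0.14), Adamts7 (-3.61, SE 0.21), Adamts12 (-2.74, SE 0.53) and Adamts17 (-1.85, SE 0.28) were lower too, with levels up to 4.53 CPM in CD45 libraries, against up to 8.15 CPM in the flow-through. Adamts3, Adamts7, Adamts12 and Adamts17 passed the filter on low counts only through the flow-through, which favours a difference. Adamts13, which cuts von Willebrand factor, did not pass the filter, with 0.102 to 0.247 CPM in CD45 libraries, against 0.0310 to 0.394 CPM in the flow-through. Adamts18 (at most 2 counts in a library), Adamts19 (at most 2) and Mmp21 (at most 5) were also below it.

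The inhibitors stood mainly in the flow-through. Timp1 (chrX:20870166-20874735, plus strand), the inducible inhibitor known to rise in injured brain, lay at 63.7, 78.7 and 97.6 CPM (lowest, median, highest) in CD45 libraries, against 214, 279 and 339.9 CPM in the flow-through (-1.81, SE 0.11, edgeR adjusted p = 1.55e-10). Per kilobase of exon it was the highest of all members in the flow-through, with 316 CPM ± 47.9 (SD, n = 7). Timp3, the inhibitor bound to matrix that also blocks aggrecanases, lay at 10.9, 13.7 and 28.2 CPM in CD45 libraries, against 106, 115 and 144 CPM in the flow-through (-2.94, SE 0.18), although 21.3% of its exon sequence overlaps Syn3 on the opposite strand. Timp4 (chr6:115241892-115252205, minus strand) lay at 0.0477 to 0.788 CPM in CD45 libraries, against 22.1 to 32.9 CPM in the flow-through (-5.82, SE 0.24). Timp2, which binds Mmp14 and the Mmp2 precursor, lay at 146 to 211.5 CPM in CD45 libraries, against 150.5 to 182 CPM in the flow-through, and the difference did not pass (0.06, SE 0.08, edgeR adjusted p = 0.469). Its direction flipped under 2 scalings, to -0.19 (edgeR adjusted p = 0.0378) with upper-quartile factors and to -0.47 (edgeR adjusted p = 3.24e-05) with library totals. Those scalings put the median of all genes at -0.307 and -0.583, against -0.054 with TMM.

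Summed over each family, the balance of RNA differed between fractions. The 20 Mmp genes added up to 1788 CPM ± 327.9 in CD45 libraries and 236 CPM ± 14.0 in the flow-through (SD, n = 7 each). The 4 Timp genes added up to 269 CPM ± 13.3 in CD45 libraries and 594 CPM ± 52.7 in the flow-through. The 19 Adamts genes added up to 903.9 CPM ± 167 in CD45 libraries and 659.5 CPM ± 57.7 in the flow-through. By library totals, without TMM, the Adamts sums were 751 CPM ± 129.6 in CD45 libraries and 792 CPM ± 65.9 in the flow-through, so their order turned. On that scale the Mmp sums were 1484 CPM ± 253 in CD45 libraries and 283 CPM ± 16.5 in the flow-through, and the Timp sums were 224 CPM ± 12.1 in CD45 libraries and 714 CPM ± 68.4 in the flow-through. On both scales, the ranges of the 7 libraries did not overlap for the Mmp and Timp sums. A few genes held most of the CD45 sums of Mmp and Adamts. There Mmp9 averaged 693 CPM, Mmp19, whose value is uncertain, 584.9 CPM, Mmp14 262 CPM and Adamts1 781 CPM on the TMM scale. By gene, 8 Mmp genes were higher in CD45 libraries and 8 lower, and 4 Adamts genes higher and 11 lower. The family sums were not tested, and they are of RNA, not of enzyme.

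**Figure D4:**
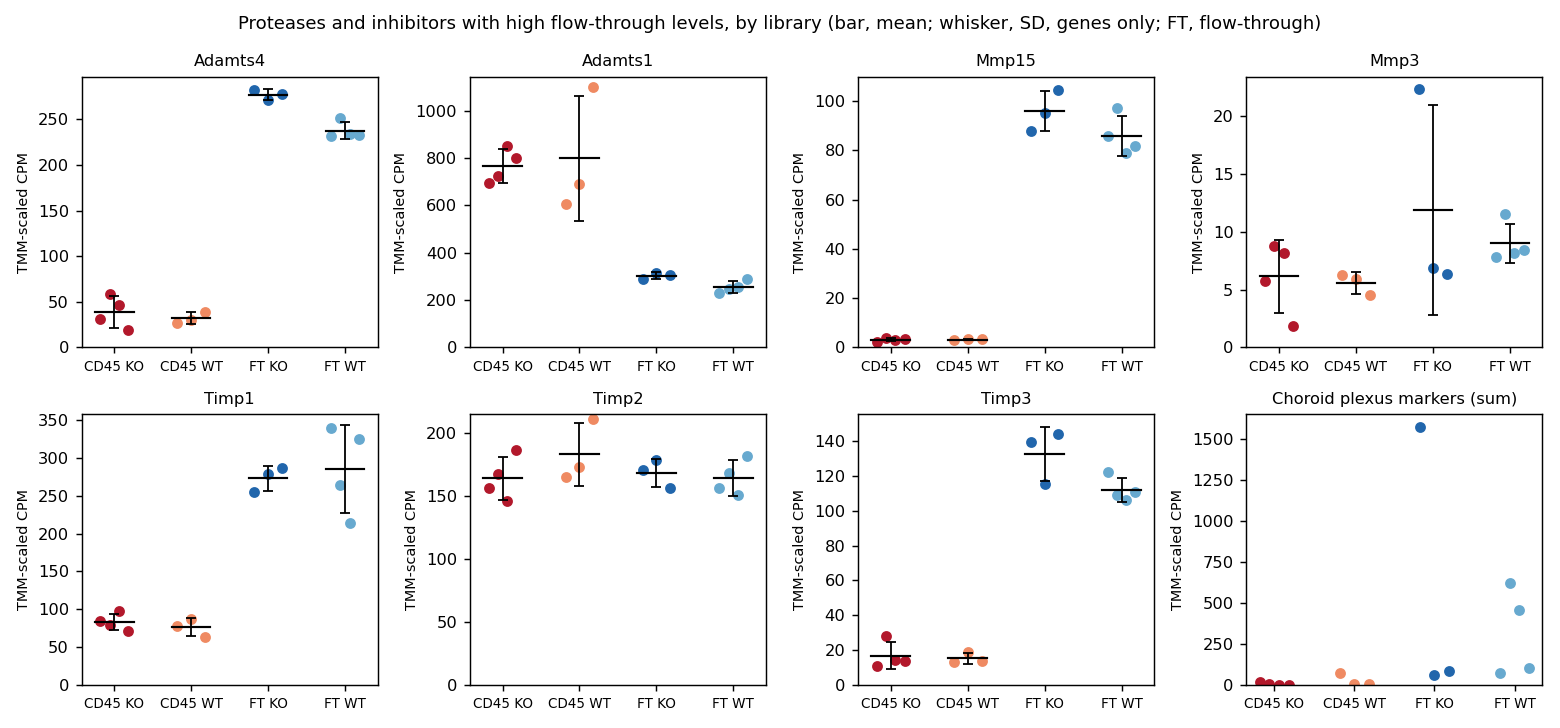
TMM-scaled CPM of 7 proteases and inhibitors, and of summed choroid plexus markers, in each library by group (points, libraries; bars and whiskers, mean and SD of genes). Timp2 overlaps between fractions, and Mmp3 and the choroid plexus markers are highest in flow-through KO replicate 1.

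In the flow-through, the comparison of KO with WT asks whether endothelial loss of EphA4 changed these genes in the cells that passed the beads. Mmp17 (chr5:129584169-129611099, plus strand), a membrane-type metalloproteinase, was the only one of the 34 genes tested that passed. It was at 14.2, 14.1 and 14.5 CPM in the 3 KO libraries, against 10.8, 8.91, 8.39 and 8.64 CPM in the 4 WT libraries. Every KO library was above every WT library, and the means were 14.3 CPM ± 0.199 (SD, n = 3) in KO libraries, against 9.18 CPM ± 1.085 (SD, n = 4) in WT libraries. The log2 fold change was 0.62 (SE 0.12, edgeR adjusted p = 0.0198). The call of 1 gene in 34, or 2.94%, stands beside 1.57% of all 16546 genes, or 1.42% for higher calls and 0.151% for lower ones, and the median log2 fold change was 0.03 for the 34 genes and -0.01 for all genes.

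The direction of Mmp17 was the same in all 15 alternative settings run, but the call was not. It passed in 7 of the 15, with a log2 fold change of 0.52 to 0.80 and edgeR or DESeq2 adjusted p of 0.000528 to 0.962. With each library's trend on GC content and length removed it was 0.52 (edgeR adjusted p = 0.0773). It also missed the threshold without flow-through WT replicate 2 (0.0746), WT replicate 3 (0.074), WT replicate 4 (0.0583), KO replicate 1 (0.0767) or KO replicate 2 (0.0651), all edgeR adjusted p. Among the 10 neuron markers, 3 were higher in KO (Slc17a7, Nrgn and Syn1), 1 lower (Gad2) and 6 did not pass. Their summed level was 655 to 836 CPM in KO and 497 to 685 CPM in WT libraries, and their part in the Mmp17 result was not tested. In the CD45 fraction Mmp17 was at 0.750, 3.94, 1.90 and 3.15 CPM in KO libraries, against 1.17, 1.79 and 1.43 CPM in WT libraries, and the groups overlapped (0.74, SE 0.51, edgeR adjusted p = 0.974). Summed neuron markers in the same libraries were at 48.7, 212.8, 95.5 and 96.6 CPM in KO and 38.2, 73.7 and 60.1 CPM in WT, and their part there was not tested. The difference of the genotype effect between fractions was 0.07 (SE 0.49, edgeR adjusted p = 0.995).

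The other genes with the smallest p in the flow-through did not pass. Adamts4 was at 282.5, 271 and 278 CPM in KO libraries, against 232, 252, 234 and 233 CPM in the WT group (0.21, SE 0.08, edgeR adjusted p = 0.321). Its groups did not overlap, as was so for 2 of the 34 genes and for 11.4% of all genes tested. Adamts1 averaged 304 CPM ± 14.4 (SD, n = 3) in KO libraries, against 254.9 CPM ± 25.25 (SD, n = 4) in the WT group (0.24, SE 0.09, edgeR adjusted p = 0.328). Timp3 averaged 133 CPM ± 15.5 in KO libraries, against 112 CPM ± 6.97 in the WT group (0.23, SE 0.09, edgeR adjusted p = 0.365). Adamts3 (0.43, SE 0.25, edgeR adjusted p = 0.587) and Mmp15 (0.15, SE 0.09, edgeR adjusted p = 0.614) completed the 6 with the smallest p. Unadjusted, 4 of the 34 genes had p under 0.05, beside 11% of all genes.

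Mmp3 in the flow-through was at 22.4, 6.92 and 6.33 CPM in KO libraries, against 7.87, 11.6, 8.15 and 8.48 CPM in WT libraries. The high value is KO replicate 1, and the 2 other KO libraries lay below all WT libraries. Mmp12 was likewise highest in KO replicate 1 at 4.045 CPM and next in WT replicate 2 at 2.62 CPM. Summed choroid plexus markers (6 genes) were at 1573, 62.9 and 83.5 CPM in KO libraries, against 71.8, 622, 459 and 104 CPM in WT libraries, and so were highest in the same 2 libraries. Their part in these levels was not tested.

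**Figure D5:**
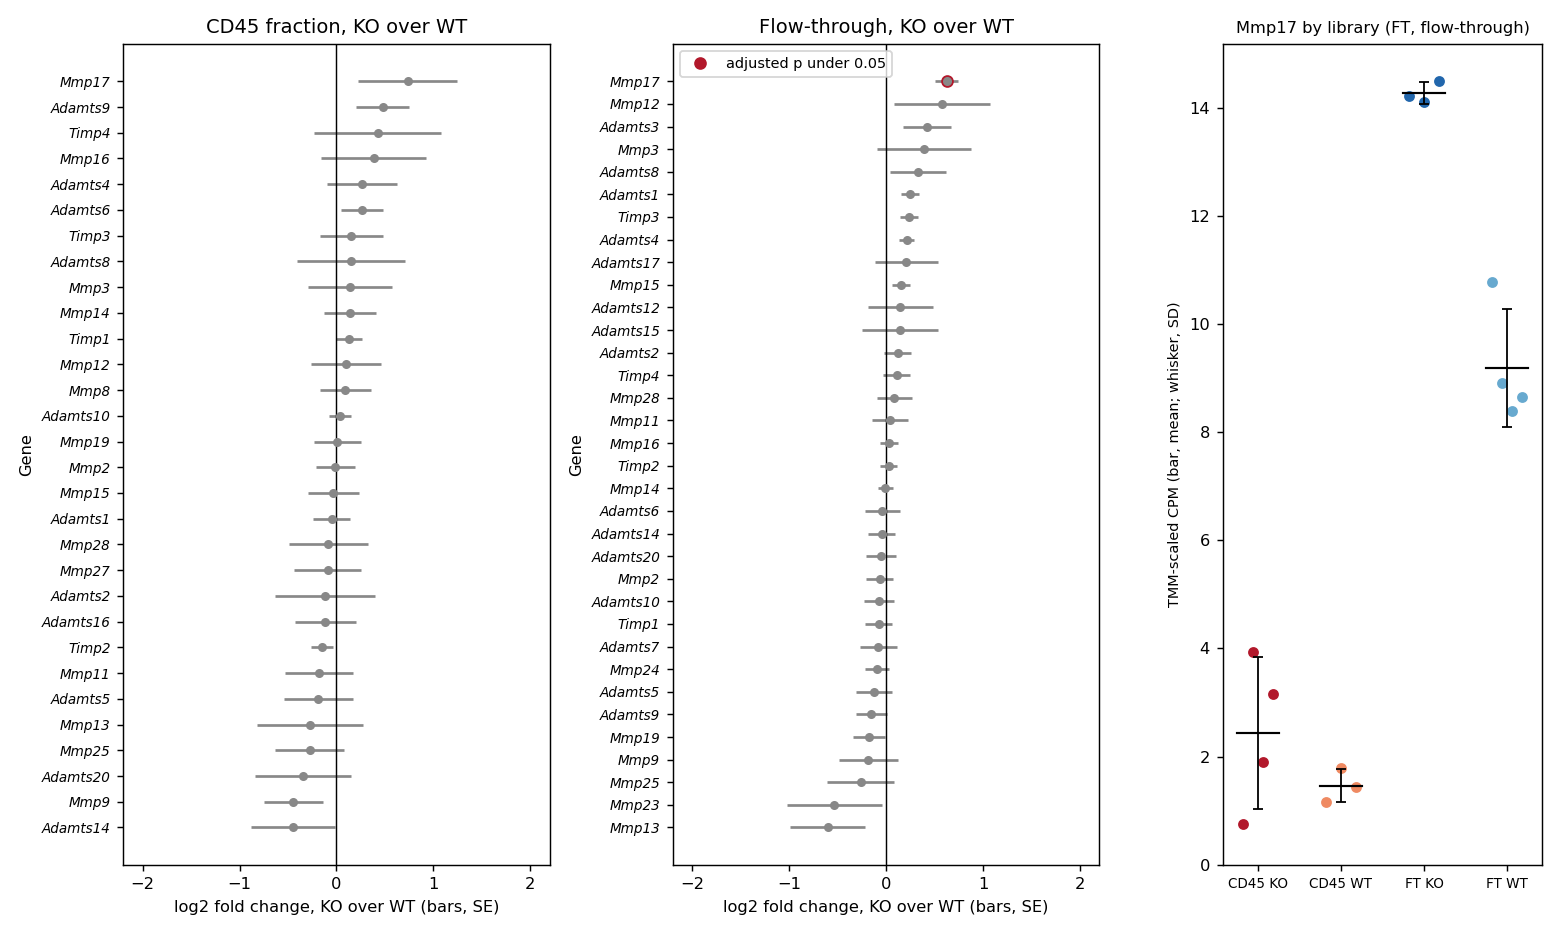
The log2 fold change, KO over WT, of each gene tested in the CD45 fraction (30 genes) and in the flow-through (34 genes) with its standard error, and Mmp17 by library (points) with mean and SD. Mmp17 in the flow-through, in red, was the only one of these genes with an adjusted p under 0.05.

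In the CD45 fraction, the comparison asks whether the immune cells of KO cortex carried other levels of these genes, and no gene passed. EdgeR called 0 of 30 genes and 0 (0%) of 15660 genes, with 0 of the 30 and 4.43% of all genes at an unadjusted p under 0.05, and DESeq2 called 0 of these genes and 5 of all genes. The groups overlapped for every one of the 30, beside 5.24% of all genes whose groups did not. The gene with the smallest p was Adamts9, at 35.6, 65.0, 62.2 and 30.6 CPM in KO libraries, against 34.95, 36.2 and 33.6 CPM in the WT group (0.48, SE 0.27, edgeR adjusted p = 0.974). KO replicates 2 and 3 were high and the 2 other KO libraries lay within or under the range of the WT libraries. Mmp9, whose values by library stand above, averaged 598 CPM ± 195.5 (SD, n = 4) in KO libraries, against 819.7 CPM ± 314 (SD, n = 3) in the WT group (-0.44, SE 0.30, edgeR adjusted p = 0.974). Without CD45 WT replicate 3 its log2 fold change was -0.10.

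Timp2 averaged 164 CPM ± 17.1 in KO libraries, against 183 CPM ± 24.9 in the WT group (-0.15, SE 0.12). Adamts6 (0.26, SE 0.22) and Adamts14 (-0.45, SE 0.43), with Mmp17, completed the 6 with the smallest p. Mmp8 averaged 125 CPM ± 39.8 in KO libraries, against 118 CPM ± 32.5 in the WT group (0.09, SE 0.27), and Mmp14 272 CPM ± 61.2 in KO libraries, against 249 CPM ± 86.4 in the WT group (0.14, SE 0.27). With an SE of 0.27 on the log2 scale, differences of that size, and ones well above it, could not be called. In the same fit the proteoglycan Ncan, at 0.74 (SE 0.26), had an edgeR adjusted p of 0.974. The interaction of genotype and fraction called 0 of 37 genes (edgeR, 0 of 18098 genes), with 0 of the 37 and 7.21% of all genes at an unadjusted p under 0.05. DESeq2 called 0 of these genes and 45 of all genes, or 0.287%. Its smallest p were those of Adamts9 (0.61, SE 0.34) and Mmp24 (1.15, SE 0.67).

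Genes that act on or around these enzymes were counted from 3 lists. Of 32 matrix proteins that they cut or that border their sites, 32 were tested between fractions, 7 higher in CD45 libraries and 22 lower. Fn1, fibronectin, was higher (6.39, SE 0.22), and the proteoglycan Ncan (-6.00, SE 0.21) and the link protein Hapln2 (-5.84, SE 0.16) were lower, all by edgeR. Of 23 regulators, 22 were tested, 7 higher and 11 lower. Thbs1, thrombospondin (8.69, SE 0.13), and Furin, the convertase that activates membrane-type and Adamts precursors (3.498, SE 0.09), were higher, and the convertase Pcsk6 was lower (-5.76, SE 0.17). Of 12 Adam genes, membrane-anchored relatives, 11 were tested, 7 higher and 4 lower, with Adam8 (8.39, SE 0.19), Adam17 (2.63, SE 0.06) and Adam15 (2.34, SE 0.06) having the smallest p. Beside these counts, 86.1% of all genes tested were called, 41.4% higher and 44.7% lower.

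Between genotypes, 1 gene of these lists passed, beside 1.57% of all 16546 genes tested in the flow-through. Hapln4, a link protein of perineuronal nets, was higher in KO flow-through libraries (0.87, SE 0.17, edgeR adjusted p = 0.0214). Summed neuron markers were at 655 to 836 CPM in KO and 497 to 685 CPM in WT flow-through libraries. These ranges overlapped, and the part of these markers was not tested. The 31 other matrix genes, the 22 regulators and the 11 Adam genes did not pass there. Acan, aggrecan, the substrate after which the aggrecanases are named, followed with 0.93 (SE 0.23, edgeR adjusted p = 0.0741), and the net protein Tnr with 0.34 (SE 0.09, edgeR adjusted p = 0.121). Furin (0.30, SE 0.09, edgeR adjusted p = 0.187), Plat (0.48, SE 0.16, edgeR adjusted p = 0.267), Cst3 (0.37, SE 0.13, edgeR adjusted p = 0.267), Adam19 (0.18, SE 0.09), Adam10 (-0.15, SE 0.10) and Adam33 (0.50, SE 0.38) did not pass. In the CD45 fraction 0 of 27 matrix genes, 0 of 19 regulators and 0 of 11 Adam genes passed. There the smallest p were those of Ncan (0.74, SE 0.26), Hapln4 (1.16, SE 0.54) and Tnc (0.61, SE 0.34), of Sparc (0.28, SE 0.12), Pcsk6 (0.99, SE 0.45) and Plat (0.51, SE 0.24), and of Adam22 (0.73, SE 0.40), Adam9 (0.11, SE 0.11) and Adam11 (0.36, SE 0.36). The interaction called 0 genes of the 3 lists. Its smallest p were those of Furin (-0.53, SE 0.15), Sparc (0.34, SE 0.15) and Pcsk6 (0.81, SE 0.36), of Hapln3 (1.93, SE 0.77), Hapln1 (2.66, SE 1.17) and Lama5 (-0.59, SE 0.28), and of Adam22 (0.73, SE 0.37), Adam15 (-0.14, SE 0.12) and Adam33 (-0.63, SE 0.56).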

How the data were processed

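The authors deposited whole-number read counts per gene in 1 table per bead fraction. The submitters' processing notes name Trim Galore, FastQC, STAR 2.7.9a, DESeq2 and the build GRCm38. The counter and its strand setting are not given in the sources used, so the 12 genes whose exons overlap another gene are uncertain. Tables of DESeq2-normalized values were not used. Of 33223 gene IDs, 33130 matched GENCODE M21, the source of symbols, positions and exon lengths (union of exons).

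EdgeR 4.0.16 in R 4.3.3 tested the counts of 14 libraries (robust quasi-likelihood test, TMM, filterByExpr with a minimum count of 10 and a minimum total of 15). Benjamini-Hochberg adjustment ran over all genes tested, with a threshold of 0.05. Genotypes were compared within a fraction, and fractions and the interaction in 1 fit with a mean per group. The code was tested on simulated data. Alternatives were DESeq2 1.42.0, other scalings, no filter, a GC and length correction, a joint fit, each library left out, and the mismatched library entered. No animal is named in the labels, so p-values cover the spread between libraries, which may be partly technical, and fractions may share animals. All members are named by role, with statistics for those called and for the 6 with the smallest p per genotype comparison, and from 3 further lists the 3 genes with the smallest p per comparison. Genes whose values by library are discussed for 1 library were chosen after their values were seen. The members and lists were chosen with earlier results of these data known.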

Additional observations from a re-analysis of the deposited data

Results flagged for a closer look

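In 4 of 64 groups of 4 libraries examined (a gene in flow-through WT or CD45 KO), 1 library lay far from the other three by Dixon's criterion, and chance flags about 1 in 20 groups. All 4 were in flow-through WT. Adamts15 was at 5.52 CPM in replicate 4, against 1.71 to 1.84 CPM in the others. Adamts3 was at 2.79 CPM in the same library, against 1.72 to 1.80 CPM. This library also had the highest sum of fibroblast markers, 438 CPM, against 183 to 284 CPM in the other WT flow-through libraries, and the part of those cells was not tested. Adamts4 was at 252 CPM in replicate 2, against 232 to 234 CPM. Mmp3 was at 11.6 CPM in that library, against 7.87 to 8.48 CPM.

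In the library labelled flow-through WT replicate 5, left out of the fits, 5 metalloproteinase genes were flagged. Each was at 10 CPM or more there and at least 10-fold above every other flow-through WT library (CPM by library total). The neutrophil and astrocyte marker sums of replicate 5 on that scale lay in the range of the CD45 libraries. Neutrophil markers were at 7289 CPM, against 7.95 to 14.96 CPM in the 7 flow-through libraries, and astrocyte markers at 190 CPM, against 7309 to 9027 CPM. In the CD45 libraries, neutrophil markers lay at 5635 to 9777 CPM and astrocyte markers at 148 to 223.5 CPM. Mmp9 was at 564 CPM, against 0.773 to 1.31 CPM in the other 4. Mmp19 was at 500.0 CPM, against 6.45 to 9.56 CPM. Mmp8 was at 82.4 CPM, against 0 to 0.187 CPM. Mmp12 was at 42.6 CPM, against 0.984 to 3.20 CPM. Mmp25 was at 34.3 CPM, against 0.523 to 0.773 CPM.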

How the results depend on the processing

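Between fractions, 33 to 35 genes were called under every alternative, against 34 reported. There Timp2 reversed with upper-quartile scaling (-0.19) and library totals (-0.47), a scaling added after the data were seen. In the flow-through, the count of 1 gene (Mmp17) became 0 with the GC and length trend removed, with the mismatched library entered as labelled and in a joint fit of all groups, and ran from 0 to 1 when a library was left out. All genes called there ran from 134 to 287 when a library was left out, were 416 with DESeq2, 629 with no filter, 174 after the GC and length correction, 30 in the joint fit and 0 with the mismatched library, against 260. Mmp15 reversed to -0.0122 with the GC and length correction, and Adamts1 to -0.34 with the mismatched library. In CD45 libraries 0 genes were called throughout, and Adamts14 ran from -0.71 to 0.19 when a library was left out, reversing without WT replicate 3. In the interaction, Adamts1 reversed to 0.22 with the mismatched library and Mmp27, at 5.92 in that fit, ran from -0.10 to 2.34 when a library was left out, reversing without flow-through WT replicate 4, the only flow-through library in the fit with counts of that gene. Their causes were not tested. No paired analysis was possible because the labels give no replicate numbers, and those used here are accession order. For the 6 genes below the filter, counts were too few to test.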
